A study of Mus musculus with 14 samples.

Results

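The tumours examined here are those that the labels class as independent of Lmo2, in a mouse model of T-cell acute lymphoblastic leukaemia (T-ALL). They were chosen by that class label and paired by tumour number, and they comprise VTL-33, VTL-44 and VTL-81, which are 3 of the 8 tumours and 6 of the 14 RNA sequencing libraries of the series. The other tumours are classed as evolving (3) or dependent (2). Per the labels' protocols, thymocytes were first placed into sublethally irradiated F1 hosts of the cross C57BL/6-Ly5.1;FVB, and the frozen leukaemias were later transplanted into C57BL/6-Rag1-/- mice. Rag1-/- hosts make no mature T or B cells of their own and keep myeloid, erythroid and NK cells. Each tumour had 1 library from hosts without doxycycline (Dox) and 1 from hosts fed pellets with Dox at 600 mg/kg. RNA came from spleen cells sorted as CD45.1 and CD45.2 double positive, the donor phenotype. All 6 libraries share the host strain, the sort and the tissue, and differ in tumour and in Dox. The labels give no promoter for the Lmo2 transgene, do not state which way Dox acts on it and do not give the number of clones or mice behind a library. Replicates are tumours with separate numbers and 1 library on each side, so that every p-value for Dox rests on 3 pairs.

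Lmo2 is a LIM-domain protein that does not bind DNA itself. It bridges basic helix-loop-helix factors such as Tal1 or Lyl1 with their E protein partners, GATA factors and the adaptor Ldb1, and it holds this complex together in blood progenitors. Developing T cells normally switch Lmo2 off, and its forced expression in thymocytes gives them progenitor properties and leads to T-ALL. Each developing T cell also joins its own set of receptor gene segments. The segments a leukaemia transcribes can therefore mark the cell from which it grew, where they are the joined ones.

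The receptor segments are shown first because the leading beta variable segment was shared by both libraries of a tumour. The leading beta variable segment was Trbv24 in VTL-33, Trbv19 in VTL-44 and Trbv2 in VTL-81. The alpha segment Trav19 and the joining segments Trbj2-1 and Trbj2-7 are shown because they led in both libraries of 1 or more of these tumours. Sequences are from the mm10 genome with the GENCODE M21 annotation, written 5′ to 3′ on the plus strand. They are the last 120 bases of the variable segments and the whole joining segments. Capitals mark the codon of the conserved cysteine that opens the hypervariable loop, the codons of the phenylalanine and glycine motif that closes it, and in Trbv24 also a stop codon in frame.
Trbv24: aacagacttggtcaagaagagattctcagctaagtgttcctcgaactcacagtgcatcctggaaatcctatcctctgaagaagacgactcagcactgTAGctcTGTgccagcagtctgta
Trbv19: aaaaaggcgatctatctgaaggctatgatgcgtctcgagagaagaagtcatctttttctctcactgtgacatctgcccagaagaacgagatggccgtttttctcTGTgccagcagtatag
Trbv2: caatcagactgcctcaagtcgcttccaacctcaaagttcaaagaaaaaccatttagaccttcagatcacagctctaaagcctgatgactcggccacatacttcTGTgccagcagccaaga
Trav19: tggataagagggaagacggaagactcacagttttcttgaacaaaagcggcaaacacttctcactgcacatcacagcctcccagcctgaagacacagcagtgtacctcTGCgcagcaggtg
Trbj2-1: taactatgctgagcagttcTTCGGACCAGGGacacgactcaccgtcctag
Trbj2-7: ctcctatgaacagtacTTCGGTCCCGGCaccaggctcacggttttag
The stretches lie at chr6:41218438-41218557, chr6:41178929-41179048, chr6:41047876-41047995, chr14:53845708-53845827, chr6:41542754-41542803 and chr6:41543810-41543856. Those of the variable segments are the 3′ part of exon 2, which codes for the end of the variable region. Trbv24 is annotated as a pseudogene and holds 1 stop codon in this frame just before the cysteine codon.

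Of the 12 beta variable segments in the table, Trbv24 held 72.4% of the counts in VTL-33 without Dox (exact 95% binomial interval 71.5% to 73.2%, 10382 counts) and 71% with Dox (70.1% to 71.8%, 11798 counts). Trbv19 held 92.3% (91.9% to 92.7%) and 96% (95.7% to 96.3%) of 18339 and 21541 counts in VTL-44. Trbv2 held 28504 of 28509 counts and 21153 of 21163 counts in VTL-81. The leading segment was thus the same on both sides of each pair and differed among the tumours. Trbj2-1, among 12 joining segments, held 49% (46.8% to 51.2%) and 53.5% (51.1% to 55.9%) in VTL-44 and no counts in the other 4 libraries, where a count of 0 allows up to 0.379% to 0.698%. Trbj2-7 led in VTL-33, with 38.2% (33.7% to 42.8%) and 28.6% (24.4% to 33.1%), and in VTL-81, with 56.5% (53% to 60%) and 46.8% (43.2% to 50.5%). Trav19 held 83.6% (82.4% to 84.7%) and 84.8% (83.5% to 86%) of the counts of 6 alpha variable segments in VTL-81. It was at 0 in the other tumours, where a count of 0 allows up to 0.129 to 0.146 CPM (counts scaled to the size of the library). As a share of alpha counts, it allows up to 1.21% in VTL-33 without Dox and 30% with Dox. In VTL-44, with 6 and 3 alpha counts, it allows up to 50% without Dox and 100% with Dox. Among these 3 tumours VTL-44 and VTL-81 thus each had a segment at 0 counts in the others. For Trav19, the alpha counts of VTL-44 and of VTL-33 with Dox were too few to compare shares. In VTL-33 the alpha segments did not match between its libraries: Trav17 led without Dox, with 166 of 247 counts (67.2%, interval 61% to 73%), and all 10 counts with Dox were of Trav13-2. The beta constant gene Trbc1 stood at 0.945 and 0.614 CPM in VTL-33, against a range of 476 to 839 CPM in the libraries of the other tumours. Trbc1 and Trbc2 are near-identical copies, and reads that fit both may not have been counted. These intervals and limits cover counting error only, and gene counts do not show which segments were joined. These segments also led in libraries of other tumours of the series, so none of Trbv24, Trbv2, Trbj2-1 or Trav19 by itself identifies a tumour. Trbv24 led without Dox in all 3 evolving tumours, Trbv2 led in VTL-24 and VTL-19 without Dox, Trbj2-1 led in VTL-19 without Dox (34.1% of 2338 counts) and Trav19 led in VTL-153 with Dox (38.7% of 155 counts).

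The deposited counts summed to between 18214415 and 23638375 per library over the listed genes, and mitochondrial genes held 1.62% to 6.01% of them. The labelled cell type was checked against its markers, and all 32 listed T lineage genes were in the table. Cd3e, a receptor signalling chain, stood at 405, 189.9 and 493 CPM without Dox and 488, 177 and 481 CPM with Dox in VTL-33, VTL-44 and VTL-81. The kinase gene Lck stood at 1068, 1300.5 and 1332 CPM without Dox and 1062, 1270.5 and 1291 CPM with Dox. Here and below, 3 values in a row are for VTL-33, VTL-44 and VTL-81 in that order. The B cell genes Cd79a, Pax5 and Ms4a1 and the NK cell gene Ncr1 were not analysed here. Other members of these lists were present. The 9 measured genes of the B cell and MHC class II list summed to 531, 489 and 925 CPM without Dox and 515, 145 and 928 CPM with Dox. The 5 measured NK cell genes summed to 853, 92.2 and 817 CPM without Dox and 652, 74.2 and 1502 CPM with Dox. Myeloid and erythroid transcripts were present at levels that differed among the libraries, and they are given beside the results they touch. In bulk samples, fewer cells of a type and less RNA per cell cannot be told apart.

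Lmo2 (ENSMUSG00000032698, chromosome 2, 103957986 to 103981878 on mm10) had the lower value on the Dox side of every pair, from very different starting levels. VTL-33 had 13820 counts without Dox and 30 with Dox, or 594 and 1.32 CPM, a 451-fold difference. VTL-44 had 187 and 84 counts, or 9.07 and 4.09 CPM, a 2.22-fold difference. VTL-81 had 631 counts without Dox and stood at 27.6 and 8.21 CPM, a 3.36-fold difference. Only VTL-33 without Dox therefore carried abundant Lmo2 among the 6 libraries, and with Dox all 3 tumours were at 8.21 CPM or less. Gene counts do not separate transgene from endogenous Lmo2. In the paired edgeR fit the log2 change was -3.16 (SE 1.66, n = 3 tumours), with an adjusted p of 1. Leaving out VTL-33 gave −1.45, leaving out VTL-44 gave −4.99 and leaving out VTL-81 gave −4.90. Limma voom gave −5.40 and the edgeR fit that ignores the pairing −5.54, and the adjusted p of these fits lay between 0.923 and 1. The genes past 2-fold with Dox on the log2(CPM + 1) scale numbered 670 in VTL-33, 833 in VTL-44 and 925 in VTL-81. With 1 library a side, a link between these counts and the size of the Lmo2 change was not tested. The median gene moved by 0.166 on the log2(CPM + 1) scale in VTL-33, by 0.272 in VTL-44 and by 0.285 in VTL-81.

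None of the partner genes of Lmo2 passed the test for Dox. Of 17 listed partners 14 were measured and tested, Lmo2 included, and edgeR called none of them higher or lower with Dox, against 0 (0%) higher and 0 (0%) lower among all 12288 genes tested. A gene is called bounded here where the whole 95% interval of its Dox change from limma voom lay within 1 log2 unit of 0, that is within 2-fold. This held for 9 of the 14 partners (64.3%) and for 8785 of all genes tested (71.5%). The median Dox change was 0.00 on the log2 scale for the list and for all genes.

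Ldb1, the adaptor that dimerises the complex, stood at 216, 289 and 232 CPM without Dox and 245, 327 and 262 CPM with Dox, with an interval of -0.15 to 0.50. The E protein gene Tcf3 stood at 254, 289 and 281 CPM without Dox and 283, 369 and 184 CPM with Dox, and the interval was -0.59 to 0.50. Tcf12, a further E protein gene, stood at 912, 686 and 793 CPM without Dox and 737, 757 and 698 CPM with Dox (interval -0.51 to 0.28). All 3 genes stayed within 2-fold in every pair, including VTL-33, where Lmo2 differed by 451-fold. Runx1, which encodes a runt-domain factor that acts beside the complex, was lower with Dox in each tumour, at 212, 146 and 239 CPM without Dox and 181, 115 and 196 CPM with Dox, and this did not pass (adjusted p = 1 by edgeR). Ssbp3, which encodes a protein that stabilises Ldb1, stood at 248, 133 and 188 CPM without Dox and 175, 155 and 156 CPM with Dox. Ssbp2, its relative, stood at 47.5, 79.7 and 48.3 CPM without Dox and 31.2, 101 and 60.5 CPM with Dox. Both were bounded, with intervals of -0.64 to 0.27 and -0.53 to 0.62.

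Of the 14 partners 3 (21.4%) differed between the tumours, against 543 of 12288 over all genes (4.42%), and these 3 stayed within 2-fold with Dox in each tumour. Tcf4, which encodes an E protein, stood at 61.6, 11.4 and 69.0 CPM without Dox and 62.8, 10.8 and 69.5 CPM with Dox (adjusted p = 0.0126 for any difference between tumours by edgeR). Gata3, the GATA factor of the T lineage, stood at 147, 45.5 and 157 CPM without Dox and 180.1, 38.4 and 165 CPM with Dox (adjusted p = 0.0241). Lmo4, a relative of Lmo2 that binds Ldb1, stood at 112, 459 and 64.1 CPM without Dox and 167, 492 and 89.8 CPM with Dox (adjusted p = 0.0136). VTL-44 was thus lowest in Tcf4 and Gata3 and highest in Lmo4 and did not overlap with the other tumours there, whereas VTL-33 and VTL-81 overlapped in Gata3. The plot of Lmo2 and its partners shows both patterns beside each other.

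**Figure D1:**
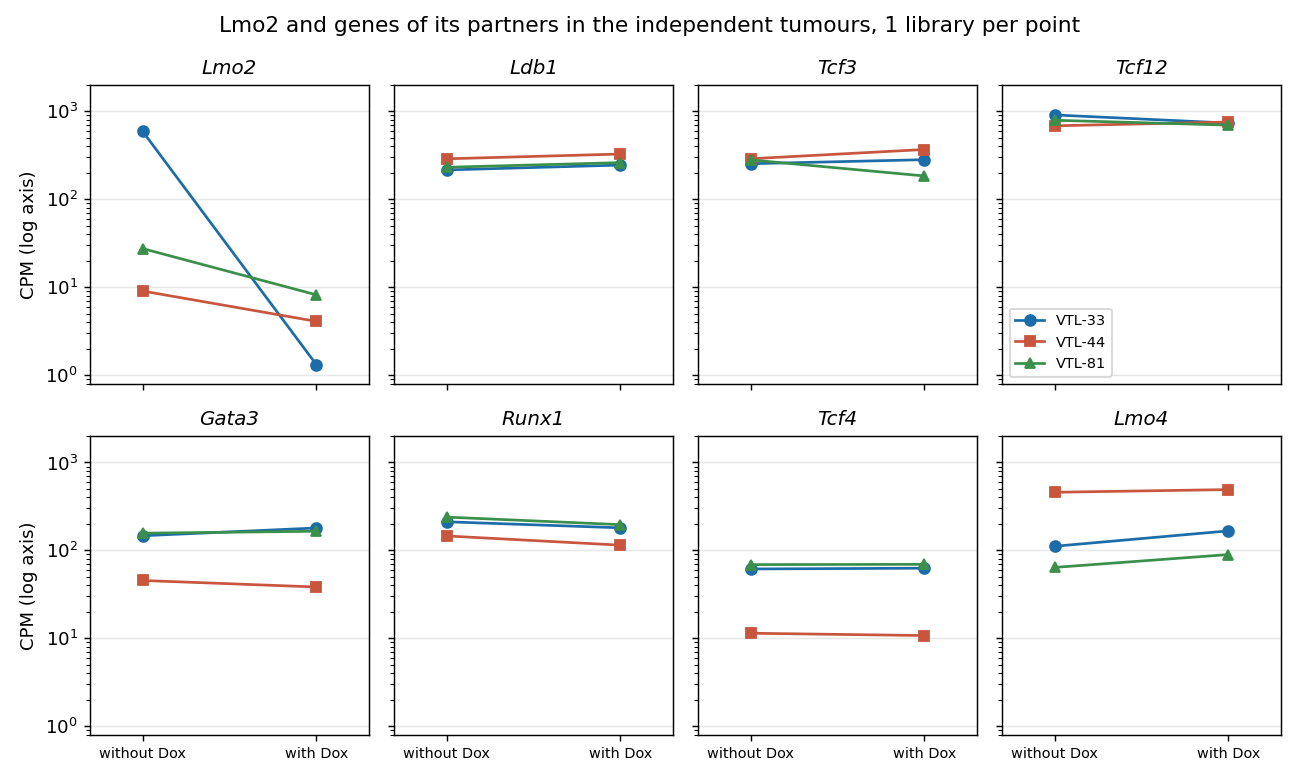
Levels of Lmo2 and 7 genes of its partners in CPM (log axis) without and with Dox; each point is 1 library and each line joins the libraries of 1 tumour. Lmo2 runs from 594 to 1.32 CPM in VTL-33, while the lines of Ldb1, Tcf3 and Tcf12 are close to level and those of Gata3, Tcf4 and Lmo4 are set apart for VTL-44.

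The basic helix-loop-helix partners were scarce in every library. Lyl1 stood at 3.26, 10.4 and 2.45 CPM without Dox and 3.03, 4.53 and 13.2 CPM with Dox, and its direction differed among the tumours. Tal1 stood at 0.0430, 1.55 and 0.481 CPM without Dox and 0.219, 5.02 and 2.57 CPM with Dox, a log2 change of 2.06 (SE 0.54, n = 3 tumours) with an adjusted p of 1; the red cell genes described below had the same signs, and their part in it was not tested. Gata1, the erythroid GATA factor, stood at 5.20, 2.67 and 3.15 CPM without Dox and 3.25, 4.09 and 3.65 CPM with Dox. The corepressor gene Cbfa2t3 stood at 38.4, 48.6 and 74.0 CPM without Dox and 23.4, 16.8 and 100.5 CPM with Dox, lower with Dox in VTL-33 and VTL-44 and higher in VTL-81. None of these 4 genes was bounded, so for them the data allow a change of more than 2-fold in at least 1 direction. Ldb2, Gata2 and Lmo1 were not analysed here.

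Genes listed as targets of Lmo2 in progenitors were mostly at low levels. Of 19 listed, 15 were in the table and 13 were tested; none passed for Dox, 1 was bounded (7.69%, against 71.5% of all genes) and 1 differed between tumours (7.69%, against 4.42%). The list's median Dox change was 0.49, against 0.00 for all genes, and it was 0.20 in VTL-33, −0.32 in VTL-44 and 1.11 in VTL-81. Kit, the stem cell factor receptor, stood at 35.8, 5.00 and 0.874 CPM without Dox and 16.5, 3.80 and 5.85 CPM with Dox. The mast cell protease gene Cpa3 stood at 14.8, 1.02 and 4.41 CPM without Dox and 4.91, 0.877 and 5.68 CPM with Dox. Kit and Cpa3 were highest in VTL-33 without Dox, the library with abundant Lmo2, and lower in its partner, but neither passed (adjusted p = 1 each by edgeR). Nfix, which encodes a nuclear factor I protein, stood at 1.42, 3.54 and 4.50 CPM without Dox and 2.37, 3.66 and 7.08 CPM with Dox. Spi1, which encodes the myeloid factor PU.1, stood at 3.44, 30.3 and 4.59 CPM without Dox and 9.65, 9.99 and 27.4 CPM with Dox, with the same signs as the myeloid markers described below. Dtx1, a Notch target on this list and its 1 bounded member, stood at 404, 973 and 510.1 CPM without Dox and 512, 945 and 511 CPM with Dox.

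No gene of the 12288 tested passed edgeR's test for Dox, and the smallest adjusted p was 1. At an unadjusted p under 0.05 there were 184 genes (1.5%). DESeq2 called 8 genes and limma voom called 0. The direction was the same in all 3 tumours for 2095 genes (17%), of which 1023 were higher and 1072 lower with Dox. Random signs in 3 tumours would agree for a larger share of genes. The 1.5% is likewise below the share that an unadjusted p under 0.05 allows without any change. Neither count by itself shows a shared Dox response. The median size of the fitted change was 0.13 on the log2 scale. The other 3503 genes were not bounded, and their intervals reached past 2-fold; the median interval width over all genes was 1.04 log2 units.

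In several gene groups the mean Dox change over the 3 tumours was bounded for every or nearly every gene, which does not limit the change within 1 tumour. All 26 nuclear genes of oxidative phosphorylation and all 25 cytosolic ribosomal protein genes were bounded, against 71.5% of all genes. So were 29 of 30 genes of replication and mitosis. Mki67, a proliferation marker, stood at 1373, 1354 and 1392 CPM without Dox and 1296, 1644 and 1578 CPM with Dox. Top2a, the mitotic topoisomerase, stood at 1474, 810.2 and 1552 CPM without Dox and 1416, 895 and 1596 CPM with Dox. By tumour the lists still shifted: the medians of the oxidative phosphorylation list were 0.05, 0.37 and −0.46 on the log2(CPM + 1) scale, and those of the replication list −0.01, 0.42 and −0.18. These lists hold abundant genes, whose intervals are narrower, and their shares are descriptions. All 19 measured T-ALL suppressor genes were bounded, although 1 was past 2-fold lower in VTL-44, and so were all 5 genes of the Ikaros family of lymphoid zinc finger factors. Ikzf1, the Ikaros gene itself, stood at 1456, 956 and 1207 CPM without Dox and 2017, 1019 and 1224 CPM with Dox, with an interval of -0.22 to 0.60. Bcl11b, which commits cells to the T lineage, stood at 212, 322 and 313 CPM without Dox and 251, 296 and 353 CPM with Dox, and Phf6, a chromatin gene mutated in T-ALL, stood at 129, 84.3 and 119 CPM without Dox and 122, 82.1 and 124 CPM with Dox. Ezh2, the methyltransferase of the Polycomb complex, stood at 386, 355 and 408 CPM without Dox and 349.7, 269.7 and 385 CPM with Dox. Ikzf1 and these suppressor genes stayed within 2-fold in each pair.

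Genes of Notch signalling, the main oncogenic pathway of T-ALL, were bounded as often as genes in general. Of 14 tested genes 10 were bounded (71.4%, against 71.5% of all genes), and none passed for Dox. Notch1 stood at 1697, 2321 and 2619 CPM without Dox and 1566, 2912 and 1946 CPM with Dox (interval -0.56 to 0.41). Notch3 stood at 429.7, 1129 and 412 CPM without Dox and 443, 996 and 447 CPM with Dox, and it differed between tumours (adjusted p = 0.0355 by edgeR), highest in VTL-44. The target gene Hes1 stood at 109, 72.2 and 83.4 CPM without Dox and 131, 58.9 and 89.6 CPM with Dox. The members that were not bounded were Nrarp, Ptcra, Il2ra and Myc. Nrarp, a feedback inhibitor of the pathway, stood at 54.2, 46.8 and 1.70 CPM without Dox and 37.3, 31.1 and 4.88 CPM with Dox, lowest in VTL-81. Myc stood at 297, 95.7 and 242 CPM without Dox and 288, 30.6 and 212 CPM with Dox. Of the 30 genes of the list of Myc and ribosome biogenesis 26 were bounded and 29 had a fitted change below 0, with a median of −0.23. By tumour, the median of the log2(CPM + 1) differences was −0.01 in VTL-33, 0.05 in VTL-44 and −0.75 in VTL-81.

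A smaller set of genes was steady with Dox and far apart between tumours. Of 7849 genes with a mean of at least 4 on the log2 CPM scale, 1830 (23.3%) differed by at most 0.25 log2 units within each of the 3 pairs. Among these the genes with the largest range between tumours were Tcf4, Syt14, Ccdc134, Atg16l2, Med13l, Tbc1d4, Fam3c, Spint2, Dopey2 and Rdm1, with ranges of 1.58 to 2.64 log2 units. Syt14, a synaptotagmin gene, stood at 19.8, 52.2 and 9.83 CPM without Dox and 17.4, 47.3 and 10.03 CPM with Dox. Med13l, of the Mediator kinase module, stood at 53.6, 163 and 61.6 CPM without Dox and 46.7, 193 and 62.3 CPM with Dox. Atg16l2, a relative of the autophagy gene Atg16l1, stood at 36.5, 13.5 and 48.1 CPM without Dox and 37.2, 13.8 and 55.8 CPM with Dox. Spint2, which encodes an inhibitor of serine proteases, stood at 143, 180.0 and 64.5 CPM without Dox and 127, 199.9 and 60.4 CPM with Dox. VTL-44 was at 1 end of the range for Tcf4, Syt14, Med13l and Atg16l2, and VTL-81 was the lowest for Spint2. These genes were chosen for that pattern, and their levels are a description.

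The genes nearest to a shared Dox change are named by their unadjusted p, and none passed (adjusted p = 1 for each by edgeR). Plaur (chromosome 7, 24462484 to 24475968), the urokinase receptor gene, stood at 0.988, 21.003 and 1.18 CPM without Dox and 3.12, 118 and 8.10 CPM with Dox. It was higher with Dox in each tumour, with a log2 change of 2.34 (SE 0.27, n = 3 tumours) and an unadjusted p of 0.000253. Its mean was 7.72 ± 11.5 CPM without and 43.1 ± 65.0 CPM with Dox (SD, n = 3). The ranges without and with Dox overlapped across the tumours, a comparison that ignores the pairing. Hivep3 (chromosome 4, 119733784 to 120138045), which encodes a large zinc finger protein that binds kappa B motifs, stood at 323, 159 and 202 CPM without Dox and 140.0, 87.6 and 80.0 CPM with Dox. It was lower with Dox in each tumour, with a log2 change of -1.13 (SE 0.15, n = 3 tumours) and an unadjusted p of 0.000595, and its mean was 228 ± 85.4 CPM without and 103 ± 32.7 CPM with Dox. The library groups did not overlap for Hivep3, whose lowest value without Dox was 159 CPM and highest value with Dox 140.0 CPM.

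The phosphatase gene Ptp4a3 stood at 259, 149.5 and 206 CPM without Dox and 161, 100.3 and 129 CPM with Dox, a log2 change of -0.64 (SE 0.13, n = 3 tumours), and it was bounded all the same (interval -0.97 to -0.32). Hunk, a kinase gene, stood at 9.75, 11.6 and 0.175 CPM without Dox and 41.4, 30.8 and 0.322 CPM with Dox. Pld3, which encodes a lysosomal nuclease, stood at 44.8, 72.6 and 45.5 CPM without Dox and 65.6, 127 and 69.3 CPM with Dox, a log2 change of 0.66 (SE 0.14, n = 3 tumours). Hunk thus ranged from 0.175 CPM in VTL-81 to 41.4 CPM in VTL-33. Its sign was the same in each tumour, but in VTL-81 it rests on very low values (0.175 and 0.322 CPM). The remaining genes named by this rule were Hbb-bs and Gramd3, higher with Dox, and Iltifb, Qsox2 and Tmem132b, lower with Dox. Iltifb has a near-identical copy, so its counts are uncertain. DESeq2 called Plaur (adjusted p = 5.93e-08), Hivep3 (8.36e-06) and Gramd3 (0.0283), and 5 red cell genes described next.

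Red cell transcripts had higher values with Dox in all 3 tumours. Of 13 tested genes of the erythroid and platelet list, 10 were higher with Dox in each tumour and 10 had an unadjusted p under 0.05, against 1023 of 12288 and 184 of 12288 over all genes. None passed by edgeR (adjusted p = 1), and the list's median change was 2.01. Slc4a1, the anion exchanger of red cells, stood at 0.0430, 7.52 and 0.656 CPM without Dox and 0.658, 40.6 and 8.10 CPM with Dox. Car2, a carbonic anhydrase gene, stood at 0.129, 6.55 and 0.393 CPM without Dox and 0.921, 36.7 and 5.95 CPM with Dox. The beta globin gene Hbb-bs stood at 0.859, 9.80 and 2.75 CPM without Dox and 2.90, 32.5 and 7.62 CPM with Dox. By DESeq2 the adjusted p was 3.96e-05 for Slc4a1, 4.52e-05 for Car2, 0.00052 for Car1, 0.00986 for Aqp1 and 0.0218 for Hbb-bs. The beta globin genes Hbb-bs and Hbb-bt are close copies, so their counts may be shared. All of these were low: Alas2, the first enzyme of heme synthesis in red cells, reached 6.24 CPM at most, whereas Tfrc, the transferrin receptor of dividing cells, stood at 357, 279 and 271 CPM without Dox and 338, 278 and 317 CPM with Dox and made up most of the list's sum. The list summed to 365 CPM off Dox and 349 CPM on Dox in VTL-33, to 325 CPM off Dox and 471 CPM on Dox in VTL-44 and to 281 CPM off Dox and 359.9 CPM on Dox in VTL-81. The part of red cells or their RNA in the sorted samples was not tested.

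Changes within a tumour rest on 1 library a side and have no test. On the log2(CPM + 1) scale 670 genes (5.45%) moved at least 2-fold with Dox in VTL-33, 410 (3.34%) higher and 260 (2.12%) lower. In VTL-44 the count was 833 (6.78%), with 128 (1.04%) higher and 705 (5.74%) lower. In VTL-81 it was 925 (7.53%), with 802 (6.53%) higher and 123 (1%) lower. VTL-44 thus moved mostly down and VTL-81 mostly up. Of these genes 382 moved past 2-fold in both VTL-44 and VTL-81, which is 45.9% of the genes of VTL-44 and 41.3% of those of VTL-81, and 362 of them were lower in VTL-44 and higher in VTL-81. VTL-33 and VTL-81 shared 227 genes (33.9% and 24.5%), of which 151 were higher in both. VTL-33 and VTL-44 shared 171 genes (25.5% and 20.5%), of which 125 were higher in VTL-33 and lower in VTL-44. Across the 12288 genes the changes of VTL-44 and VTL-81 had a Pearson correlation of −0.46, those of VTL-33 and VTL-44 one of −0.07 and those of VTL-33 and VTL-81 one of 0.10. Spearman correlations were −0.416, 0.039 and −0.0399 in the same order, so the sign for both pairs with VTL-33 depended on the measure. Genes are not independent replicates, and these correlations describe 6 libraries. Plaur and Hbb-bs were past 2-fold higher in all 3 tumours, and no gene was past 2-fold lower in all 3; Lmo2 itself missed this in VTL-44, where its difference was −0.98.

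Myeloid transcripts had lower values with Dox in VTL-44 and higher ones in VTL-33 and VTL-81. Of 27 tested genes of the myeloid list, 19 were past 2-fold lower in VTL-44 (5.74% of all genes were), 24 past 2-fold higher in VTL-81 (6.53% of all genes) and 16 past 2-fold higher in VTL-33 (3.34% of all genes). The list summed to 200.1 CPM off Dox and 469 CPM on Dox in VTL-33, to 2799 CPM off Dox and 1603 CPM on Dox in VTL-44 and to 453 CPM off Dox and 3734 CPM on Dox in VTL-81. S100a9, a neutrophil protein gene, stood at 9.49, 595 and 48.9 CPM without Dox and 24.6, 369.7 and 670.2 CPM with Dox. Lyz2, the lysozyme gene of myeloid cells, stood at 10.9, 48.4 and 23.3 CPM without Dox and 31.1, 16.4 and 267 CPM with Dox. Csf1r, the receptor of macrophages, stood at 13.1, 74.9 and 21.9 CPM without Dox and 40.4, 7.95 and 71.2 CPM with Dox. The genes with the largest changes in VTL-44 and VTL-81 were, as drops, Ear2, Csf1r, Vcam1 and Pla2g7 in VTL-44 and, as gains, Chil3, Slfn4, Fn1 and Serpinb1a in VTL-81. Chil3, which encodes a chitinase-like protein of macrophages, stood at 7.17, 367 and 16.96 CPM without Dox and 29.5, 220.3 and 434 CPM with Dox. No gene of the list was called for Dox, and its median change over the 3 tumours was 0.83.

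Transcripts of the sex chromosomes separated the tumours and moved beside the myeloid list. Xist, the RNA of the inactive X chromosome, stood at 4.29, 1866 and 8.92 CPM without Dox and 11.1, 2113 and 45.7 CPM with Dox. Ddx3y, on the Y chromosome, stood at 0, 7.76 and 96.7 CPM without Dox and 0, 4.00 and 140.4 CPM with Dox, and a count of 0 allows up to 0.129 to 0.132 CPM in VTL-33. VTL-44 thus carried Xist at 1866 CPM or more with little Ddx3y, VTL-81 carried Ddx3y with little Xist, and VTL-33 had little of either. The minor transcript moved as the myeloid sum did in each tumour: Xist was higher with Dox in VTL-33 and VTL-81, and Ddx3y was lower with Dox in VTL-44. The sort gate was CD45.1 and CD45.2 double positive, the donor phenotype, and the part of other cells was not tested.

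Mitochondrially encoded transcripts followed the same signs. The 7 tested genes summed to 39715 CPM off Dox and 58706 CPM on Dox in VTL-33, to 43125 CPM off Dox and 20608 CPM on Dox in VTL-44 and to 14968 CPM off Dox and 51035 CPM on Dox in VTL-81. mt-Co1, a cytochrome oxidase subunit gene, stood at 13773, 16696 and 4877 CPM without Dox and 19782, 7304 and 18291 CPM with Dox. The nuclear genes of the same respiratory chain did not share these shifts: their medians were 0.05, 0.37 and −0.46 against 0.57, −1.08 and 1.77 for the mitochondrial genes. The plot of summed levels shows the crossing of VTL-44 and VTL-81.

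**Figure D2:**
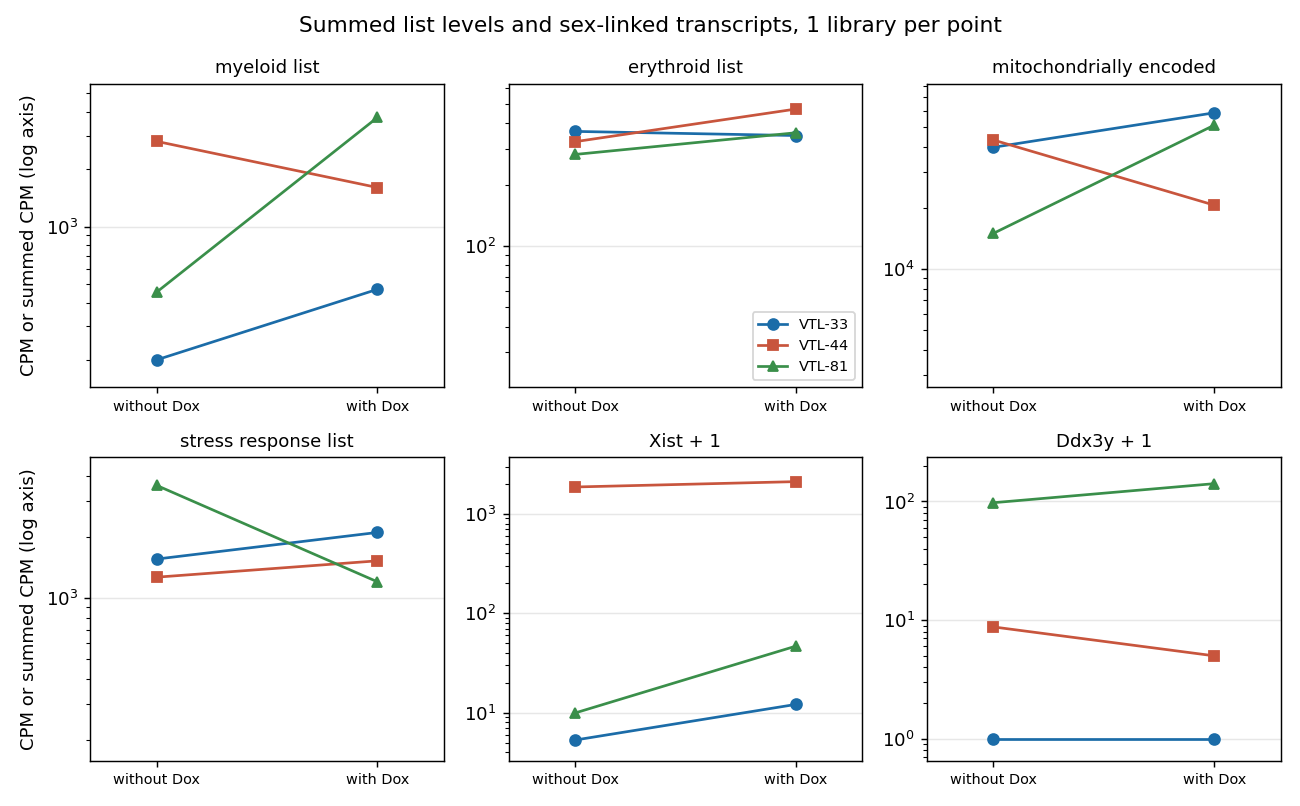
Summed CPM of 4 gene lists and CPM + 1 of Xist and Ddx3y (log axes) without and with Dox; each point is 1 library and each line 1 tumour. The myeloid and mitochondrially encoded sums run down in VTL-44 and up in VTL-33 and VTL-81, and the stress response sum runs down in VTL-81 only.

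In VTL-81 genes of the integrated stress response, which Atf4 drives when amino acids or heme run short, had lower values with Dox. Of 17 tested genes 14 were past 2-fold lower there, against 123 of 12288 over all genes. The list summed to 3591 CPM off Dox and 1203 CPM on Dox in VTL-81, to 1557 CPM off Dox and 2106 CPM on Dox in VTL-33 and to 1268 CPM off Dox and 1526 CPM on Dox in VTL-44. Trib3, a pseudokinase gene induced by Atf4, stood at 25.5 CPM off Dox and 0.751 CPM on Dox in VTL-81. The amino acid transporter gene Slc7a5 stood at 608 CPM off Dox and 112 CPM on Dox there, and the asparagine synthetase gene Asns at 29.1 CPM off Dox and 3.70 CPM on Dox. In VTL-33 Slc7a5 stood at 136 CPM off Dox and 238 CPM on Dox, and in VTL-44 at 119.6 CPM off Dox and 149.7 CPM on Dox. The largest drops in VTL-81 were those of Trib3, Slc1a4, Slc6a9 and Stc2, of which Slc1a4 and Slc6a9 also carry amino acids. No other tumour showed this: the list's median was 0.40 in VTL-33, 0.26 in VTL-44 and −1.53 in VTL-81, and the difference between tumours was not tested. The list of Myc and ribosome biogenesis moved beside it in VTL-81, where the nucleolar gene Ncl stood at 2746 CPM off Dox and 1537 CPM on Dox and Npm1 at 1668 CPM off Dox and 1039 CPM on Dox.

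In VTL-33, the tumour in which Lmo2 differed by 451-fold, several T lineage genes had lower values with Dox. Of 32 T lineage genes 7 were past 2-fold lower there, against 260 of 12288 over all genes, namely Rag1, Rag2, Ptcra, Cd8a, Cd8b1, Il7r and Il2ra. Rag1, a subunit of the receptor recombinase, stood at 926, 515 and 165 CPM without Dox and 166, 139.7 and 187 CPM with Dox. Its partner Rag2 stood at 76.3, 21.97 and 4.20 CPM without Dox and 11.3, 6.53 and 6.70 CPM with Dox. Ptcra, the pre-T alpha chain, stood at 155, 213 and 123 CPM without Dox and 30.3, 83.5 and 100.5 CPM with Dox. All 3 genes were also lower with Dox in VTL-44, whereas in VTL-81 Rag1 and Rag2 were higher and Ptcra moved little. None passed: the log2 change was -1.43 (SE 0.55, n = 3 tumours) for Rag1 and -1.33 (SE 0.40, n = 3 tumours) for Ptcra, each with an adjusted p of 1 by edgeR. Cd8a stood at 299.5, 1001 and 325 CPM without Dox and 104, 1384 and 405 CPM with Dox. Il7r, the interleukin 7 receptor, stood at 84.6, 2.81 and 0.131 CPM without Dox and 30.2, 0.877 and 1.56 CPM with Dox, highest in VTL-33 without Dox. Among the largest gains in VTL-33 were those of Cers4, Igfbp4 and Ccnd1, and the largest drops after Lmo2 those of Necab1, Fgf13 and Cntln. Ccnd1, the cyclin D1 gene, stood at 7.09, 67.4 and 81.3 CPM without Dox and 82.4, 23.7 and 152.5 CPM with Dox. Cers4, a ceramide synthase gene, stood at 0.945, 71.5 and 0.481 CPM without Dox and 36.5, 82.4 and 13.9 CPM with Dox, and without VTL-44 it was the 1 gene that edgeR called for Dox. Necab1, a calcium-binding protein gene, stood at 133, 11.0 and 0.568 CPM without Dox and 4.83, 4.29 and 1.34 CPM with Dox.

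Of the other lists, that of the interferon response had medians of −0.75 in VTL-33, −0.46 in VTL-44 and 0.70 in VTL-81. The antiviral gene Oas2 stood at 27.5, 16.5 and 30.7 CPM without Dox and 10.3, 6.92 and 99.3 CPM with Dox. Eif2ak3, which encodes a kinase of the unfolded protein response, was among the largest gains of VTL-44, at 51.1 CPM off Dox and 292 CPM on Dox, while VTL-33 stood at 41.9 CPM off Dox and 51.2 CPM on Dox. Sgip1, Aqp1 and Car1 were the other genes with the largest gains in VTL-44. Cd44, an adhesion receptor of activated T cells and myeloid cells, stood at 2.79, 63.6 and 5.07 CPM without Dox and 8.12, 91.5 and 29.9 CPM with Dox, higher with Dox in each tumour (log2 change 1.52 (SE 0.41, n = 3 tumours), adjusted p = 1 by edgeR). The plot of list medians sets all lists beside the median of all genes.

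**Figure D3:**
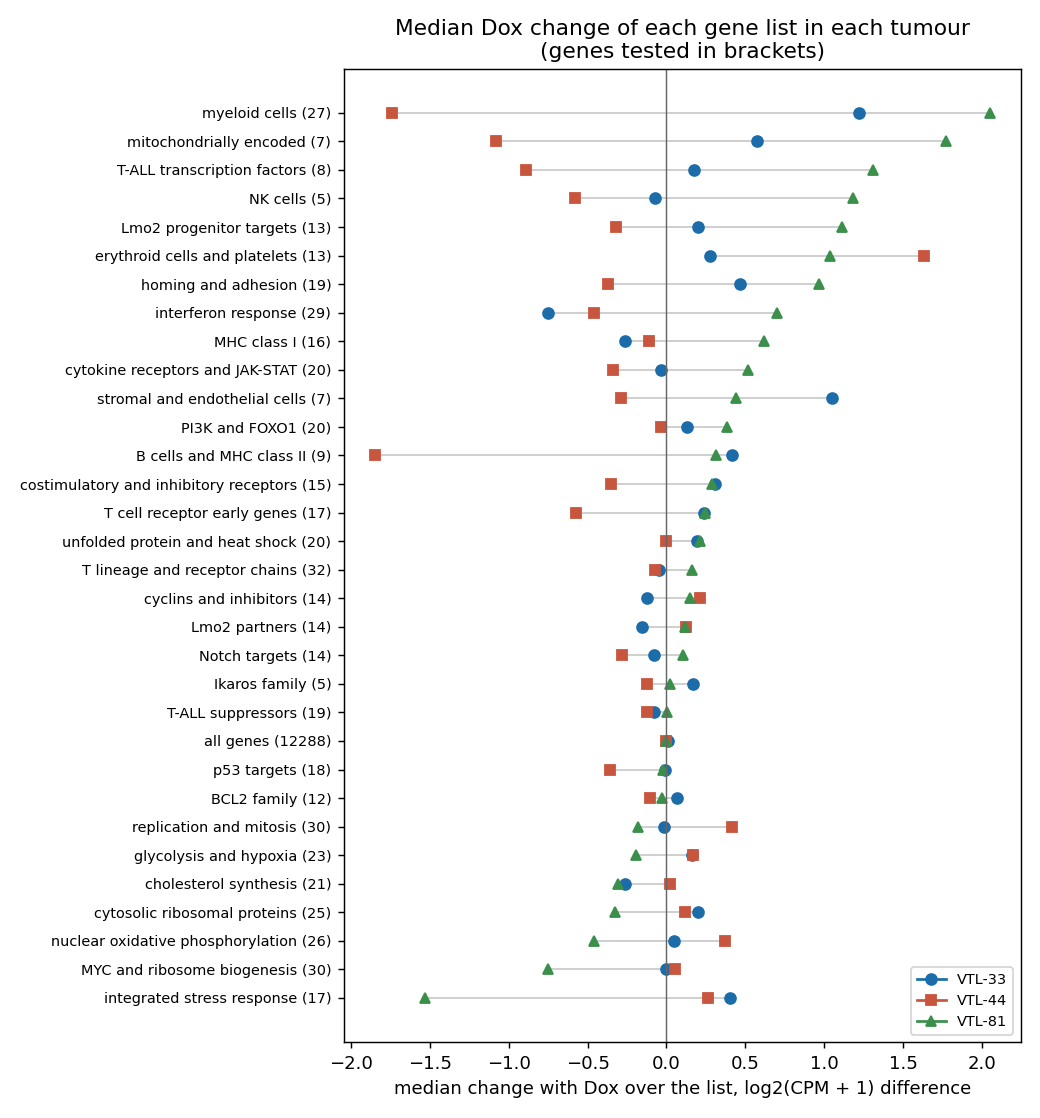
Median change with Dox over each gene list in each tumour, as a difference of log2(CPM + 1) values; each point is 1 tumour, grey lines span the 3 tumours and brackets give the genes tested. The median of all genes lies between −0.00117 and 0.0126, and the myeloid list spreads from −1.74 in VTL-44 to 2.05 in VTL-81.

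The tumours themselves differed far more than their libraries with and without Dox. On the log2(CPM + 1) scale 75.8% of the variation over the 12288 genes lay between tumours, 5.47% with Dox and 18.8% in the remainder, where the degrees of freedom alone give 40%, 20% and 40%. The Dox share is only the mean shift over the 3 tumours. The remainder is what differed within pairs beyond that shift, so both of these shares lie within pairs. For 2218 genes (18.1%) over 90% of the variation lay between tumours, and for 7 genes it lay with the mean Dox shift. The correlation of log2 values across genes was 0.956 to 0.968 between libraries of 1 tumour and 0.851 to 0.915 between libraries of different tumours. On the principal components of the 1000 most variable genes, the first (49.5% of the variance) set VTL-44 apart and the second (36.9%) separated VTL-33 from VTL-81. The third (7.34%) ran with Dox, but upwards in VTL-44 and downwards in VTL-33 and VTL-81.

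**Figure D4:**
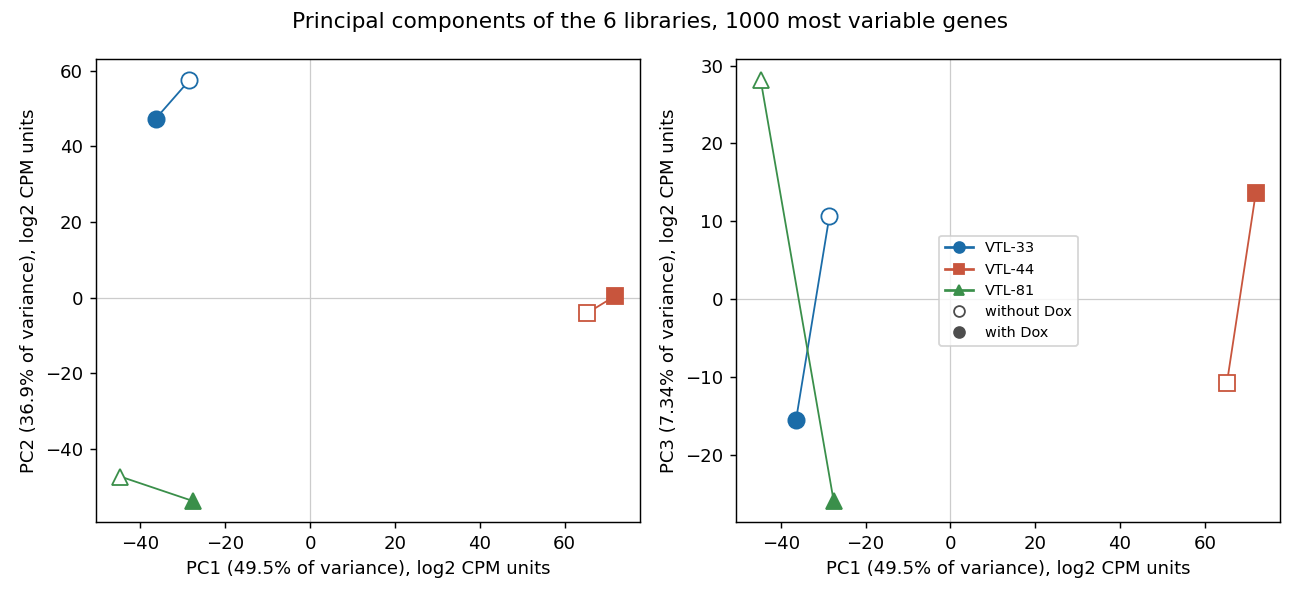
Scores of the 6 libraries on principal components 1 to 3 of the 1000 most variable genes, in log2 CPM units; open symbols are without Dox, filled symbols with Dox, and lines join the libraries of 1 tumour. VTL-44 lies at 65.2 and 72 on the first component, apart from the other libraries at −44.7 to −27.5, and the lines of the pairs are short on the first 2 components.

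With Dox in the model, 543 genes (4.42%) differed between the tumours at an adjusted p under 0.05 by edgeR, 533 of them at least 2-fold for 1 tumour against the mean of the others. Of these 543 genes 314 were bounded for Dox, a smaller share than the 8785 of 12288 (71.5%) over all genes. Each tumour was also set against the mean of the other two. VTL-33 had 68 genes higher (0.553%) and 34 lower (0.277%), VTL-44 had 609 higher (4.96%) and 514 lower (4.18%), and VTL-81 had 128 higher (1.04%) and 86 lower (0.7%). VTL-44 thus had the most genes on either side. Each such test uses 2 libraries for the tumour, 1 without and 1 with Dox, as its replicates.

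The genes most raised in VTL-33 against the mean of the others were Oprk1, Gfra1, Igf2bp3, Plk2, Fbxw8, Etv5, Iqch and Camk2a. Gfra1 was almost as high in VTL-81 (283 to 324 CPM, against 382 to 417 CPM in VTL-33), and its difference rests on VTL-44, at 0.146 to 0.243 CPM. Oprk1 (chromosome 1, 5588466 to 5606131), the kappa opioid receptor gene, stood at 249 CPM off Dox and 71.3 CPM on Dox in VTL-33, against 0.0437 to 15.7 CPM in the other 4 libraries (log2 difference 6.33, SE 0.62, adjusted p = 0.0309). Igf2bp3, which encodes an RNA-binding protein of fetal and cancer cells, stood at 60.4 CPM off Dox and 61.0 CPM on Dox, against 0.292 to 5.04 CPM (log2 difference 5.42, SE 0.25, adjusted p = 0.0045). Etv5, an ETS factor gene, stood at 147 CPM off Dox and 371 CPM on Dox, against 0.877 to 73.2 CPM. Igf2bp3 was level with Dox, whereas Oprk1 was lower and Etv5 higher with Dox in VTL-33. Lower in VTL-33 than in the others were Ly6k, Gdpd3, Fmnl2 and Sdc4, with Gdpd3 at 1.33 CPM off Dox and 1.01 CPM on Dox and Fmnl2, a formin gene of the actin skeleton, at 1.16 CPM off Dox and 1.97 CPM on Dox.

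The genes most raised in VTL-44 were Ly6k, Mn1, Slc7a11, Tspan9, Adcy1, Tln2, Sh3gl3 and Cd4. Ly6k (chromosome 15, 74796874 to 74799986), which encodes a small protein of the cell surface, stood at 246 CPM off Dox and 331 CPM on Dox in VTL-44, at 90.3 CPM off Dox and 92.3 CPM on Dox in VTL-81 and at 0.0430 CPM off Dox and 0 CPM on Dox in VTL-33. Its adjusted p was 0.00193, and no fold is given because VTL-33 had almost no counts. Mn1, a transcriptional cofactor gene of acute leukaemias, stood at 181 CPM off Dox and 109 CPM on Dox in VTL-44, against 0.262 to 4.83 CPM (log2 difference 6.66, SE 0.59, adjusted p = 0.0117). Cd4, the coreceptor gene, stood at 41.5, 577 and 15.6 CPM without Dox and 48.0, 566 and 12.6 CPM with Dox, highest in VTL-44 and steady in each pair (log2 difference 4.51, SE 0.17, adjusted p = 0.00193). Slc7a11, the cystine transporter, stood at 7.86, 202 and 11.5 CPM without Dox and 3.42, 398 and 0.804 CPM with Dox. Among the genes lower in VTL-44 were Gfra1, Iqch and Kctd17. Gfra1 (chromosome 19, 58235604 to 58455909), the receptor of the growth factor Gdnf, stood at 382, 0.243 and 324 CPM without Dox and 417, 0.146 and 283 CPM with Dox, so that VTL-44 all but lacked a transcript that was abundant in the other tumours (log2 difference -10.77, SE 0.31, adjusted p = 0.00127).

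The genes most raised in VTL-81 against the mean of the others were Gdpd3, Apcdd1, Ccdc88a, Susd4, Tpm3-rs7, Scamp1, Klk8 and Zfp946. Susd4 was close to this level in VTL-33 with Dox, at 91.6 CPM, against 101 to 103 CPM in VTL-81 and 1.31 to 2.68 CPM in VTL-44. Gdpd3 (chromosome 7, 126766334 to 126775649), a phosphodiesterase gene of lipid metabolism, stood at 1.33, 30.9 and 142 CPM without Dox and 1.01, 31.1 and 207 CPM with Dox (log2 difference 4.83, SE 0.22, adjusted p = 0.00498). Apcdd1, an inhibitor of Wnt signalling, stood at 6.06, 0.922 and 36.7 CPM without Dox and 6.41, 0.682 and 37.5 CPM with Dox (log2 difference 4.05, SE 0.23, adjusted p = 0.00821). Both were highest in VTL-81 on either side of the pair. Tpm3-rs7 is a copy related to Tpm3, and its counts may be shared with it. Lower in VTL-81 were Oprk1, Hunk, Ly6d and Il2ra. Il2ra, the interleukin 2 receptor alpha chain of early thymocytes and activated T cells, stood at 139, 452 and 1.97 CPM without Dox and 35.4, 264 and 3.81 CPM with Dox (log2 difference -5.73, SE 0.73, adjusted p = 0.0391). Ly6d, a marker of lymphoid progenitors, stood at 402, 80.2 and 1.14 CPM without Dox and 69.0, 72.6 and 1.98 CPM with Dox.

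**Figure D5:**
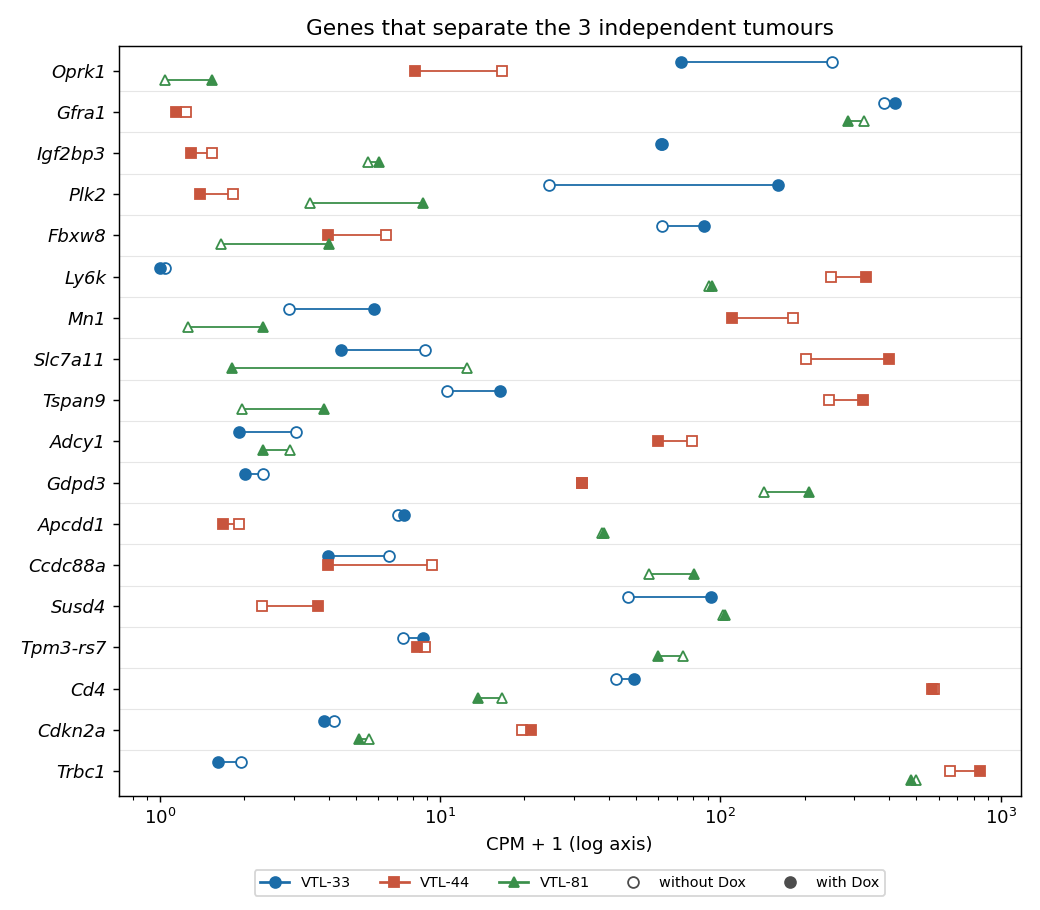
CPM + 1 (log axis) of the 5 genes most raised in each tumour and of Cd4, Cdkn2a and Trbc1; open symbols are without Dox, filled symbols with Dox, and lines join the libraries of 1 tumour. Gfra1 is at 0.243 CPM or less in VTL-44 and at 283 CPM or more in the other tumours.

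Genes of T-ALL pathways were among those that separated the tumours. Cdkn2a (chromosome 4, 89274471 to 89294653), the locus of p16 and p19Arf, stood at 3.18, 18.5 and 4.59 CPM without Dox and 2.85, 20.2 and 4.13 CPM with Dox, highest in VTL-44 (log2 difference 2.42, SE 0.27, adjusted p = 0.0181). Foxo1, a factor that PI3 kinase signalling restrains, stood at 46.9, 139.6 and 45.3 CPM without Dox and 50.5, 148 and 73.0 CPM with Dox (adjusted p = 0.0381 for any difference between tumours by edgeR). VTL-44 thus had the highest Cdkn2a, Foxo1 and Cd4. Of the 19 suppressor genes 3 (15.8%) differed between tumours, Cdkn2a and Gata3 among them, against 4.42% of all genes. In the Ikaros family 3 of 5 genes did: Ikzf2 (Helios) stood at 249.5, 56.1 and 141 CPM without Dox and 280.1, 51.4 and 236 CPM with Dox, and Ikzf3 (Aiolos) at 669, 282 and 706 CPM without Dox and 829, 257 and 636 CPM with Dox, both lowest in VTL-44. Ikzf4 stood at 4.42, 0.534 and 7.34 CPM without Dox and 5.09, 0.390 and 6.06 CPM with Dox.

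Of the 32 T lineage genes 11 (34.4%) differed between the tumours, against 543 of 12288 over all genes (4.42%). Dntt, the template-free polymerase that adds bases at receptor joints, stood at 691, 124 and 1349 CPM without Dox and 466, 98.6 and 1334 CPM with Dox (adjusted p = 0.0126 by edgeR). The receptor chain genes Cd3d, Cd3e and Cd3g were lowest in VTL-44, with adjusted p of 0.037, 0.0388 and 0.0327, and Cd3g stood at 622, 205 and 809 CPM without Dox and 504, 223 and 666 CPM with Dox. Trac, the alpha constant gene, stood at 138, 68.9 and 318 CPM without Dox and 205, 82.4 and 354 CPM with Dox (adjusted p = 0.0201). VTL-81 was thus highest and VTL-44 lowest in both Dntt and Trac. The gamma constant gene Tcrg-C2 stood at 415, 15.6 and 141 CPM without Dox and 319, 5.02 and 364 CPM with Dox. The cytotoxic granule gene Gzma stood at 847, 69.1 and 812 CPM without Dox and 644, 65.6 and 1477 CPM with Dox (adjusted p = 0.0225). Gzma is on the NK cell list, of which 5 of 15 genes were measured. VTL-44 was thus low in gamma chain, Dntt and Gzma transcripts and high in Cd4, and each of these held its side of the range with Dox.

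The independent tumours were set against the evolving tumours only for the Dox response itself, in a fit of 12 libraries. The response differed for 15 of 12411 genes (0.121%) by edgeR, and for 13 of these 15 the change in the independent tumours was within 1 log2 unit. CPM in this paragraph are from that fit. Sdc1, the syndecan 1 gene, ranged over 74.3 to 175 CPM in the 6 independent libraries, while the evolving libraries off Dox had 1.39 to 9.35 CPM and those on Dox 86.0 to 223 CPM (difference of log2 changes −5.11, SE 0.43, adjusted p = 0.0411). Cpa3 ranged over 0.876 to 15.0 CPM in the independent libraries, while the evolving libraries off Dox had 80.4 to 250.3 CPM and those on Dox 0 to 0.442 CPM. For 7 of the 9 genes with a more positive response in the evolving tumours, all 6 independent libraries lay above all 3 evolving libraries without Dox, and for all 6 genes with a more negative response there they lay below. This includes VTL-33 without Dox, whose Lmo2 stood at 600.1 CPM, against 303 to 708 CPM in the evolving libraries off Dox. The 15 genes were chosen by the test on these same libraries, so the counts among them are descriptions. No share over all genes was computed for these separations or for changes within 1 log2 unit. The median size of the fitted Dox change over all genes was 0.127 log2 units in the fit of 6 libraries. A change within 1 log2 unit is therefore not particular to the 15 genes. Some were narrow: Arhgef10l stood at 74.62 CPM in VTL-33 with Dox, against 74.49 CPM in VTL-21 without Dox. For Lmo2 the log2 responses differed by 5.88 (adjusted p = 0.568 by edgeR). The count of 15 was 0 without VTL-33, VTL-44, VTL-81 or VTL-25, 3 without VTL-153 and 58 without VTL-21.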

How the data were processed

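The authors deposited 1 table of raw counts per gene for 14 libraries, made with STAR 2.5.2b and featureCounts on mm10, per the submitters' processing notes; strand setting and annotation are not given in the sources used here. The table also holds 42 per-sample columns that were not used. Its 12421 genes all reach 1 CPM in at least 2 libraries, so scarcer genes were not analysed here; some genes are not reported here. Symbols and coordinates were checked against GENCODE M21.

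Counts of the 6 libraries were filtered (edgeR filterByExpr, minimum count 10; 12288 genes) and scaled (TMM). Dox was tested with tumour as a block by edgeR 4.0.16's quasi-likelihood test (robust, Benjamini-Hochberg, threshold 0.05); standard errors are approximate. Differences between tumours used the same model. Intervals of 95% for Dox came from limma 3.58.1 (voom). DESeq2 1.42.0 and R 4.3.3 were used for alternatives. Scripts were tested on simulated data. Same-numbered libraries deviated together from the group means (correlations 0.728, 0.654 and 0.581), and the tumour number is the pairing in the labels. Named genes were, by rule, the 5 smallest p for Dox in each direction, the 8 raised and 4 lowered most among called genes for each tumour, the 4 largest changes each way within each tumour, and the most abundant members of a list; some list members were named after their values were seen. Genes named for Dox or for a tumour also needed a mean log2 CPM of at least 2. Dox genes had to move the same way in all 3 tumours. Both libraries of a tumour had to lie outside the range of the other tumours for its genes. Receptor segments, sex-linked genes, predicted genes and pseudogenes were not eligible by p or by change. The tumours, lists and rules were chosen with earlier results of these data known. Binomial intervals are Clopper-Pearson at 95%. No separate cultures or mice are stated, so p-values measure only the spread between these libraries. Alternatives were another count minimum or none, RLE scaling, DESeq2, limma voom, no block, no Dox term, other limits and leaving out each tumour.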

Additional observations from a re-analysis of the deposited data

Results flagged for a closer look

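The Dox response differed between the independent and the evolving tumours for 15 genes by edgeR's interaction test in the fit of 12 libraries. Among the named genes this was met by Cpa3 and Nfix. For Cpa3 the difference of log2 changes was 9.35 (SE 0.79, adjusted p = 0.0411): the evolving tumours had 80.4, 246 and 250.3 CPM off Dox and 0, 0.198 and 0.442 CPM on Dox, for VTL-153, VTL-25 and VTL-21. With so few counts on Dox, this fitted fold depends on the prior count. For Nfix the difference was 4.865 (SE 0.50, adjusted p = 0.0442), with evolving values of 8.15, 20.9 and 34.5 CPM off Dox and 0.556, 0.743 and 1.57 CPM on Dox and a log2 change of 0.48 in the independent tumours. Over the alternatives the adjusted p ran from 1.62e-23 to 0.143 for Cpa3 and from 2.17e-12 to 0.186 for Nfix. Cpa3 passed with the scaling of DESeq2's kind, by DESeq2 itself and without VTL-21, and Nfix passed with that scaling and by DESeq2; both missed the threshold in the other alternatives.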

How the results depend on the processing

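With DESeq2, 8 genes were called for Dox in place of 0, and leaving out 1 tumour gave 0 to 1 (Cers4, without VTL-44). In the fit with no replicate block, that is, without the pairing by tumour, the count for Dox was 0 and 28 genes had an unadjusted p under 0.05, against 184 in the paired fit. The 543 genes that differed between tumours became 1433 with no Dox term and 2372 with DESeq2, and 313 (without VTL-44) to 908 (without VTL-81), with 335 without VTL-33. With no Dox term and with DESeq2 in turn, VTL-33 had 187 and 439 genes higher and 101 and 434 lower, VTL-44 had 1173 and 1345 higher and 1047 and 1259 lower, and VTL-81 had 322 and 525 higher and 245 and 574 lower. Bounded genes numbered 4756 at a limit of 0.58 log2 units, 8408 with edgeR's interval, 7131 of 12144 genes without the pairing and 6279 to 8120 without 1 tumour, against 8785. The shares of variation between tumours and with Dox were 75.3% and 5.69% with a pseudocount of 5, 74.4% and 6.23% over genes with a mean log2 CPM from 5 up, and 74.7% and 5.7% with receptor segments left out. The 15 genes whose response differed between classes became 1 with no replicate block, 549 with DESeq2, and 0 to 58 without 1 tumour. The cause of these shifts was not tested, except that a stricter limit lowers the count of bounded genes by construction. No result reversed its direction. Of the 288 values of the genes named for a tumour under the alternatives, 282 stayed past the threshold; the exceptions included Plk2 in VTL-33 with segments left out (adjusted p = 0.0501) and, by limma voom, Sdc4 (0.0674), Sh3gl3 (0.0555), Oprk1 in VTL-81 (0.0528) and Ly6d (0.0874).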

Other observations

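Transcripts of connective tissue and of homing receptors also varied by tumour. Of 7 tested genes of the stromal and endothelial list 4 were past 2-fold higher with Dox in VTL-33, against 3.34% of all genes. Pdgfrb, a growth factor receptor of mesenchymal cells, stood at 115, 223 and 382 CPM without Dox and 633, 182 and 566 CPM with Dox for VTL-33, VTL-44 and VTL-81. The collagen gene Col1a2 stood at 19.3, 9.90 and 119 CPM without Dox and 105, 21.6 and 162 CPM with Dox. Pdgfrb was therefore present in every library, and the level was highest in VTL-33 with Dox. The homing and adhesion list (19 tested) had medians of 0.47, −0.37 and 0.96 on the log2(CPM + 1) scale. The MHC class I list (16 tested) had medians of −0.26, −0.11 and 0.62, and H2-K1 stood at 169.9, 108 and 354 CPM without Dox and 118, 45.3 and 654 CPM with Dox; genes of this family are similar in sequence, so their counts are uncertain. Of 9 tested genes of the B cell and MHC class II list 8 were past 2-fold lower with Dox in VTL-44, against 5.74% of all genes. Cd74, the invariant chain of MHC class II, stood at 10.5, 152.6 and 27.2 CPM without Dox and 20.8, 40.5 and 68.3 CPM with Dox, and Ighm, the heavy chain constant gene, at 491, 65.8 and 789 CPM without Dox and 457, 20.9 and 703 CPM with Dox. None of the genes on these lists was called for Dox by edgeR, and the myeloid sums given in the report differed between the same libraries, so the part of other cells was not tested.

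Metabolic lists were mostly bounded for the mean Dox change. Of 21 tested genes of cholesterol synthesis 19 were bounded, and of 23 tested genes of glycolysis and hypoxia 20 were, against 71.5% of all genes. Ldha, the lactate dehydrogenase gene, stood at 858, 554 and 1082 CPM without Dox and 933, 698 and 709 CPM with Dox. The list of T-ALL transcription factors had 8 tested genes, of which 1 was bounded (12.5%, against 71.5% of all genes) and none differed between tumours (4.42% of all genes did). Its members Spi1 and Lyl1 are also in other lists, and Hhex, a homeobox gene of progenitors, stood at 0.472, 3.06 and 0.830 CPM without Dox and 0.877, 1.46 and 2.95 CPM with Dox. Igf1r, the insulin-like growth factor receptor and the 1 progenitor target that differed between tumours (adjusted p = 0.0451 by edgeR), stood at 16.1, 3.83 and 27.9 CPM without Dox and 33.7, 2.88 and 28.2 CPM with Dox. The limits of these data are the 3 pairs, the single library on each side of a pair, and the interval width: a gene that did not pass is not shown to be equal with and without Dox.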
